A study of Mus musculus with 14 samples.

Results

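Klrd1, Klrk1, Klrc1, Klrg1, Nkg7, Crtam and Cd8a are genes of killer lymphocytes, and their transcripts were followed in T helper cells of the Th1 type. The 7 genes were chosen by their measured levels and differences in earlier results of these data, and every probe set annotated to 1 of these symbols alone was taken. This gave 12 of the 34945 probe sets with a single gene symbol, for 7 of 18193 genes: 5 for Cd8a, 2 for Klrc1 and 1 for each of the others. Their values are therefore given as a description. Where they are counted among the genes under a threshold of the fit over all genes, the count describes these arrays and is no test of the 7 genes.

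RNA came from Th1 rep cells, that is, CD4+ cells from OT-II mice, which carry a transgenic T cell receptor for an ovalbumin peptide, taken from animals aged 6 to 10 weeks and driven through repeated rounds of antigen stimulation under Th1 conditions (IL-12, with IL-4 blocked). The naive cells had been sorted as CD4+CD62Lhi, and irradiated splenic antigen-presenting cells depleted of CD90.2+ cells were present in those rounds. Resting cells then received Antagomir-31, a modified oligonucleotide that blocks miR-31, or the control Antagomir-SCR, both at 1 µM, and were reactivated with plate-bound anti-CD3 and anti-CD28. RNA was hybridised to Affymetrix mouse 430 2.0 arrays at 36 h (2 arrays of each treatment), 48 h (2 of each) and 72 h (3 of each), 14 arrays in all. No source used here says that the replicates were separate cultures, so errors and p-values here cover the spread among these arrays alone, and that spread may be technical.

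NK cells and cytotoxic T cells balance activating and inhibitory receptors. Klrk1 encodes NKG2D, an activating lectin-like receptor for stress-induced ligands, whereas CD94 (Klrd1) pairs with NKG2A (Klrc1) into an inhibitory receptor for the non-classical MHC molecule Qa-1. Klrg1 is an inhibitory receptor for cadherins and a mark of late effector cells, Nkg7 is a membrane protein of lytic granules, Crtam is an adhesion receptor of activated T cells that marks CD4 cells with a cytotoxic programme, and Cd8a encodes the alpha chain of the CD8 co-receptor, which T helper cells normally silence.

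The oligonucleotide was directed at miR-31. Its mature sequence from RefSeq (GRCm38.p6, chr4:88910614-88910635, minus strand) is shown because it is the molecule that was inhibited, with the seed, bases 2 to 8, in capitals.
mmu-miR-31-5p: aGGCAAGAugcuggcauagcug
None of the 7 genes is on the study's list of putative miR-31 targets.

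For Klrk1, Klrc1, Nkg7 and Cd8a a promoter window of 300 bases was at hand (RefSeq, GRCm38.p6). They were searched on both strands for the core of the Runx motif, TGTGGT, and for a T-box half-site, GGTGTGA. These motifs were picked after the windows had been read, so their matches were known first. Runx3 and the T-box factors T-bet and Eomes are regulators of killer genes. The Runx core stood in the windows of Klrk1, Klrc1 and Nkg7, and in 16.8% of all 32851 windows. The T-box half-site stood in that of Nkg7, and in 3.98% of all windows. Neither was found in the Cd8a window. Stretches of 30 bases around the matches are shown 5′ to 3′ along each gene, with the matching letters in capitals, as the only sequence of these genes that the motif search turned on.
Klrk1, Runx core, chr6:129623976-129624005, minus strand: tgatagctgtgcTGTGGTtgtgtgggggtt
Klrc1, Runx core on the opposite strand, chr6:129679043-129679072, minus strand: gttgttgttgttACCACAgcactcgtattc
Nkg7, Runx core on the opposite strand, chr7:43437043-43437072, plus strand: gggcccacccctACCACAtaggaggagagg
Nkg7, T-box half-site, chr7:43437113-43437142, plus strand: gggggtagggaaGGTGTGAgaagaatcaga
The first matching letter lies 129 bases upstream of the transcript start for Klrk1, 87 for Klrc1, and 83 and 13 for Nkg7. Such a match describes the letters of the window and says nothing of binding.

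Values are RMA intensities on the linear scale, and differences are on the log2 scale. Arrays of 36 h had mean intensities of 232 to 235, those of 48 h had 223 to 224, and those of 72 h had 266 to 267. Arrays of 1 time were close to each other and the times were apart, so levels at different times carry this limit. The Antagomir-SCR replicate 4 array of 72 h was deposited with more decimals and held 0 values identical to those of any other array. It correlated with Antagomir-SCR replicates 2 and 3 of 72 h at r = 0.997 and 0.998. It takes part in the 72 h overlaps of Klrk1 and Klrd1 and in the 72 h margin of Klrg1. It also sets the 72 h margins of Crtam and of Klrc1 on the probe set used in the fit. Whether it was processed differently was not tested. For genes with several probe sets the fit used the highest on each array, and it tested the 10916 brightest genes, among them all 7. The median log2 difference of all tested genes was 0.33 between 72 h and 48 h and -0.05 between 48 h and 36 h, and within 0.01 of 0 between the treatments at each time. As a sign of RNA quality, actin control signal near the 3' end was compared with that near the 5' end, giving log2 ratios of 0.32 to 0.43 (36 h), 0.37 to 0.41 (48 h) and 0.21 to 0.27 (72 h). Its part in the differences between times was not tested.

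The labelled cell type was read from its markers. Of 9 markers of CD4 T cells 8 were among the tested genes, with Cd3d at 4983 to 5700 and Cd4 at 147 to 322 over the 14 arrays. Of the same list Cd40lg was dim, at 30.2 to 45.5, and the T cell receptor alpha gene (Tcra), which was not tested, was at 4.96 to 7.16. Cd8b1, the beta chain of CD8, was at 12.3 to 29.4, and the NK cell genes Ncr1 (14.2 to 19.7), Tyrobp (18.4 to 26.0) and Klra8 (5.18 to 7.72) lay within or below the range of the array medians, 21.8 to 28.4. Of the same NK cell list Fcer1g was at 30.5 to 39.4, Eomes at 25.9 to 45.2 and Klre1 at 139.8 to 288.1, above those of most or all arrays. Gzma, which activated T cells also express, was at 4661 to 7712. Detection calls were not used, so these dim values set no limit on the share of other cells. In bulk RNA fewer cells of a type and less RNA per cell cannot be told apart.

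Crtam differed between the treatments at each of the 3 times, with all Antagomir-31 arrays below all Antagomir-SCR arrays. At 36 h Crtam was 2045 and 1963 with Antagomir-31, against 2329 and 2423 with Antagomir-SCR. At 48 h it was 2474 and 2230 with Antagomir-31, against 2536 and 2757 with Antagomir-SCR. At 72 h it was 121, 122 and 132 with Antagomir-31, against 174, 163 and 153 with Antagomir-SCR. The closest arrays, as a ratio, were 2474 and 2536 at 48 h. The log2 difference was -0.25 (SE 0.07) at 36 h, -0.17 (SE 0.07) at 48 h and -0.39 (SE 0.06) at 72 h, or 1.31-fold lower at 72 h. Of the 10916 tested genes 0.65% were lower without overlap at all 3 times, 0.357% were higher and 1.01% kept either direction, and Crtam was the only one of the 7 among them.

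Crtam was chosen on these differences, so the counts that follow only place it in the fit and nothing is read from them. By limma with Benjamini-Hochberg adjustment over all tested genes, 1 of the 7 genes, Crtam, was under an adjusted p of 0.05 at 72 h, beside 1.05% of all tested genes (0.595% lower and 0.458% higher). At 36 h 0 of 7 were, beside 0.0% of all genes, and Crtam alone was at an unadjusted p under 0.05, beside 5.39%. At 48 h 0 of 7 were, beside 0.0%, and again Crtam alone at an unadjusted p under 0.05, beside 5.99%. Averaged over the 3 times the Crtam difference was -0.27 (SE 0.04), where 0 of 7 genes were under the adjusted threshold beside 0.0183% of all genes (0.00916% in each direction), and Crtam was the only one at an unadjusted p under 0.05, beside 9.46%. At 72 h Crtam was no longer under the threshold without Antagomir-31 replicate 2 (log2 difference -0.36), Antagomir-31 replicate 3 (-0.37) or Antagomir-SCR replicate 3 (-0.39), without the filter on low values, with the replicate number as a block, with the 72 h arrays alone, and with all probe sets tested. At an unadjusted p under 0.05 were Klrk1, Klrg1 and Crtam at 72 h, beside 17.5%.

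**Figure D1:**
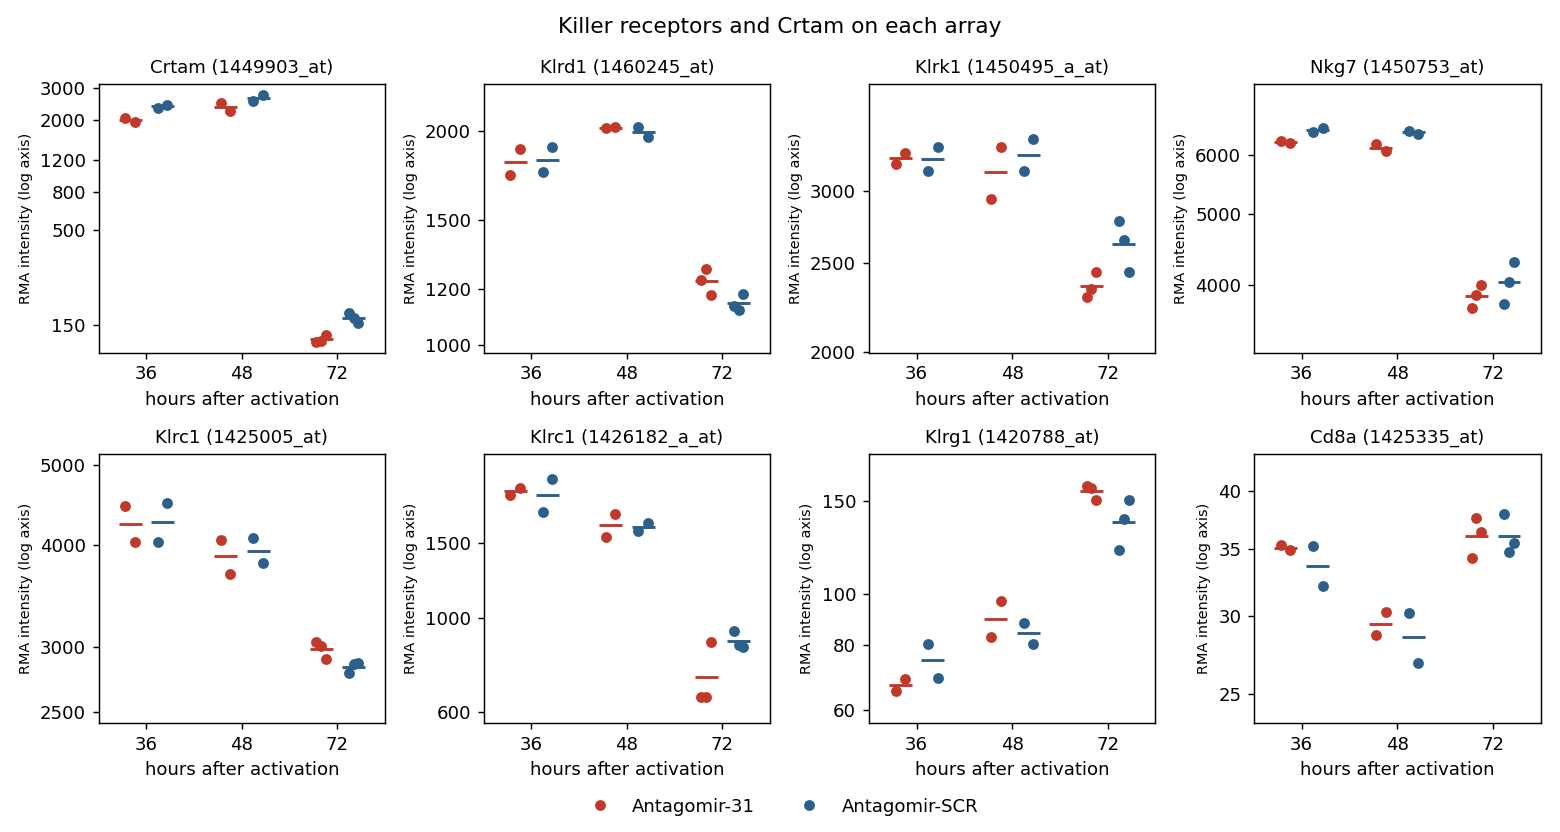
RMA intensity (log axis) of 8 probe sets of the 7 genes on each array at 36, 48 and 72 h; points are arrays, lines are group means, red is Antagomir-31 and blue Antagomir-SCR. Crtam lay between 1963 and 2757 at 36 and 48 h and between 121 and 174 at 72 h, with the red points below the blue ones at every time.

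The difference between times in Crtam was far larger than that between treatments. Its mean over both treatments was 2190 ± 221 (SD, n = 4) at 36 h, 2499 ± 217 (SD, n = 4) at 48 h and 144 ± 22.4 (SD, n = 6) at 72 h. No array at 72 h came near those of 48 h, and the fitted difference between 72 h and 48 h was -4.13 (SE 0.05), or 17.5-fold lower. Relative to the median of all genes it was -4.46, and after quantile normalization over all arrays -4.44. A log2 difference at or below -4 was found in 0.165% of tested genes, and Crtam had the 16th lowest of the 10916 values. Between 36 h and 48 h it was 0.19 (SE 0.05).

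Crtam binds Cadm1 on other cells and, in mouse T cells, recruits the polarity protein Scrib to organise a late phase of polarity. Cadm1 was among the genes too dim to be tested, at 22.1 ± 0.166 with Antagomir-31 and 22.7 ± 3.67 with Antagomir-SCR at 72 h (SD, n = 3 each). Scrib was 117 ± 6.84 with Antagomir-31 and 123 ± 3.34 with Antagomir-SCR at 72 h (SD, n = 3 each), with a log2 difference of -0.07 (SE 0.06). Of 8 polarity genes listed as its partners 6 were tested, and 0 passed at 72 h, beside 1.05% of all tested genes. At an unadjusted p under 0.05 was 1, beside 17.5%. That was Cdc42 (0.09, SE 0.04), whose difference ranged from -0.18 to 0.12 over the other settings of the fit. Between 48 h and 72 h 5 of the 6 rose, beside 71.2% of all tested genes, Scrib by 0.57 (SE 0.05), Llgl2 by 0.47 and Llgl1 by 0.36. Their median was 0.32, beside 0.33 for all genes, and after quantile normalization Llgl1 was at -0.001.

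Klrk1, which encodes the activating receptor NKG2D, showed no separation of the treatments at any time. At 36 h it was 3211 and 3303 with Antagomir-31, against 3157 and 3348 with Antagomir-SCR. It was 2943 and 3351 with Antagomir-31, against 3155 and 3416 with Antagomir-SCR, at 48 h. At 72 h it was 2296, 2346 and 2449 with Antagomir-31, against 2782, 2655 and 2447 with Antagomir-SCR. Only the replicate 4 array of each treatment lay inside the range of the other at 72 h, and the log2 difference was -0.15 (SE 0.06), after 0.00 (SE 0.08) at 36 h and -0.06 (SE 0.08) at 48 h. In mice NKG2D signals through Hcst (DAP10) and, in a short form, can also signal through Tyrobp (DAP12). Hcst was 171 ± 3.22 with Antagomir-31 and 181 ± 7.97 with Antagomir-SCR at 72 h (SD, n = 3 each), and Tyrobp was too dim to be tested.

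Klrd1 and Klrc1 encode the partners of the CD94/NKG2A receptor. Klrd1 was 1737 and 1889 with Antagomir-31, against 1751 and 1899 with Antagomir-SCR, at 36 h. It was 2018 and 2026 with Antagomir-31, against 2030 and 1963 with Antagomir-SCR, at 48 h. At 72 h it was 1235, 1280 and 1177 with Antagomir-31, against 1135, 1121 and 1181 with Antagomir-SCR. The ranges overlapped at each time, at 72 h only through the replicate 4 arrays. The log2 difference was -0.01 (SE 0.06) at 36 h, 0.02 (SE 0.06) at 48 h and 0.10 (SE 0.05) at 72 h.

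The 2 probe sets of Klrc1 gave different pictures at 72 h. The one used in the fit was 3039, 3011 and 2902 with Antagomir-31, against 2784, 2858 and 2869 with Antagomir-SCR. The other, of the type whose name ends in _a_at, was 652, 650 and 879 with Antagomir-31, against 933, 862 and 855 with Antagomir-SCR. On the first all Antagomir-31 arrays were higher and on the second 2 of 3 were far lower, with replicate 4 inside the range of Antagomir-SCR. In the fit over all probe sets the log2 difference was 0.07 (SE 0.06) for the first and -0.29 (SE 0.11) for the second. Between 48 h and 72 h they also moved by unequal amounts, -0.42 (SE 0.05) and -1.05 (SE 0.09). The ending _a_at marks a probe set that matches several transcripts of the same gene.

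At the earlier times neither Klrc1 probe set separated the treatments. On the first Klrc1 was 4458 and 4029 with Antagomir-31, against 4030 and 4493 with Antagomir-SCR, at 36 h, and 4054 and 3686 with Antagomir-31, against 4074 and 3793 with Antagomir-SCR, at 48 h. On the second it was 1948 and 2027 with Antagomir-31, against 1776 and 2120 with Antagomir-SCR, at 36 h, and 1555 and 1762 with Antagomir-31, against 1605 and 1669 with Antagomir-SCR, at 48 h. The treatments overlapped in each of these 4 comparisons.

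Klrg1, the inhibitory receptor of late effector cells, was higher at 72 h than at 48 h, whereas Klrd1, Klrk1 and Klrc1 were lower. It was 65.2 and 68.9 with Antagomir-31, against 80.1 and 69.2 with Antagomir-SCR, at 36 h. It was 82.6 and 96.7 with Antagomir-31, against 88.1 and 80.1 with Antagomir-SCR, at 48 h. At 72 h it was 160.7, 159.3 and 150.9 with Antagomir-31, against 121.0, 139.0 and 150.6 with Antagomir-SCR. The Antagomir-31 arrays were thus all lower at 36 h, overlapped with the controls at 48 h and were all higher at 72 h, with margins of less than 1 unit at 36 h and 72 h. The log2 difference was -0.15 (SE 0.10) at 36 h, 0.09 (SE 0.10) at 48 h and 0.20 (SE 0.09) at 72 h.

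Nkg7, the granule membrane protein, was lower with Antagomir-31 on every array at 36 h and 48 h, by small margins. It was 6271 and 6243 with Antagomir-31, against 6453 and 6536 with Antagomir-SCR, at 36 h. It was 6214 and 6083 with Antagomir-31, against 6486 and 6417 with Antagomir-SCR, at 48 h. At 72 h the treatments overlapped, at 3716, 3870 and 3997 with Antagomir-31, against 3764, 4031 and 4293 with Antagomir-SCR. The log2 difference was -0.05 (SE 0.06) at 36 h, -0.07 (SE 0.06) at 48 h and -0.06 (SE 0.05) at 72 h, nearly the same at each time.

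Cd8a stayed dim. Of its 5 probe sets 2 supplied the highest value, with medians of 35.1 and 37.5 at 36 h, and the other 3 lay at 5.28 to 12.9. On the first of these 2 Cd8a was 34.3, 37.6 and 36.4 with Antagomir-31, against 37.95, 34.75 and 35.5 with Antagomir-SCR, at 72 h, and the treatments overlapped at all 3 times. The highest probe set alternated between these 2 from array to array, so the fitted Cd8a value mixes them. Its log2 difference was -0.06 (SE 0.08) at 36 h, 0.07 (SE 0.08) at 48 h and 0.02 (SE 0.06) at 72 h.

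The treatments were also counted as apart or overlapping for each of the 7 genes. At 36 h 3 of 7 were lower without overlap (Klrg1, Nkg7 and Crtam), beside 14% of tested genes, and 0 were higher, beside 15.3% (29.3% either way). At 48 h 2 of 7 were lower (Nkg7 and Crtam), beside 19.8%, and 0 higher, beside 13.8% (33.5% either way). At 72 h 1 of 7 was lower (Crtam), beside 14.7%, and 2 were higher (Klrc1 on its first probe set, and Klrg1), beside 9.44% (24.1% either way). Klrg1 was the only one of the 7 apart in opposite directions at 36 h and 72 h, beside 4.26%, and none was at 48 h and 72 h, beside 3.66%. As the genes were chosen on these values, nothing is read from these counts. No gene of the 7 had a treatment difference that was called as changing between 36 h and 72 h or between 48 h and 72 h, beside 0.0183% (0.00916% each way) and 0.0366% of tested genes. At an unadjusted p under 0.05 Klrg1 did in the first (0.35, SE 0.13), beside 10.8%, and Crtam in the second (-0.22, SE 0.10), beside 10.1%.

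**Figure D2:**
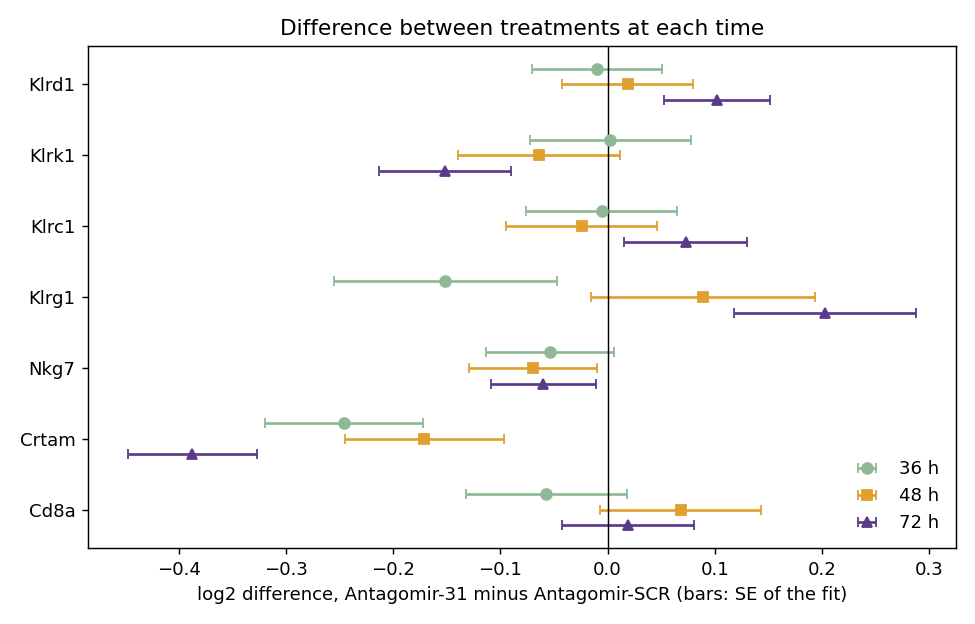
Fitted log2 difference, Antagomir-31 minus Antagomir-SCR, of the 7 genes at 36, 48 and 72 h, with bars for the SE of the fit. Crtam lies below 0 at each time (-0.25, -0.17 and -0.39), while Klrg1 lies at -0.15 at 36 h and 0.20 at 72 h.

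At 72 h Klrd1, Klrk1, Klrc1 and Nkg7 were lower than at 48 h, and Klrg1 was higher. Between 48 h and 72 h the fitted log2 difference was -0.76 (SE 0.04) for Klrd1, -0.68 (SE 0.04) for Nkg7, -0.42 (SE 0.05) for Klrc1, -0.37 (SE 0.05) for Klrk1, 0.36 (SE 0.05) for Cd8a and 0.76 (SE 0.07) for Klrg1. All 7 were under the adjusted threshold, 5 lower and 2 higher, and nothing is read from this, beside 86.8% of all tested genes (15.7% lower and 71.2% higher, and 87.4% at an unadjusted p under 0.05). Relative to the median of all genes the values were -1.09 for Klrd1, -1.005 for Nkg7, -0.75 for Klrc1, -0.70 for Klrk1, 0.43 for Klrg1 and 0.03 for Cd8a. After quantile normalization over all arrays they were -0.99, -0.91, -0.64, -0.58, 0.39 and 0.01 in the same order. Cd8a was thus near 0 on both of these scales. Over the same step markers of T cells and other cells also moved. Cd5, a T cell surface receptor, fell by 2.66 (SE 0.06), but of the 8 tested CD4 T cell markers 5 were called higher and 2 lower. Cd3e rose by 0.77 (SE 0.04) and Cd4 by 0.63 (SE 0.08). Cd74 of antigen-presenting cells rose by 1.54 (SE 0.07). H2-Ab1 of the same cells rose by 0.20 (SE 0.07) and was at -0.17 after quantile normalization. The B cell genes Pax5 and Cd22 rose by 1.09 (SE 0.05) and 0.93 (SE 0.10). Both were dim, at 16.7 to 41.9 and 20.9 to 49.7 over all arrays. The part of these marker changes in the differences of the 7 genes was not tested. The summed level of the CD8 markers Cd8a and Cd8b1 at 72 h was 63.8 to 67.2 in Antagomir-31 cells, against 64.9 to 67.6 in Antagomir-SCR cells, and at 48 h it was 43.0 to 45.5 in Antagomir-31 cells, against 39.5 to 44.9 in Antagomir-SCR cells.

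Between 36 h and 48 h the differences were smaller. Klrg1 was higher by 0.29 (SE 0.07), Crtam by 0.19 (SE 0.05) and Klrd1 by 0.14 (SE 0.04), and Cd8a was at -0.36 (SE 0.05). These 4 of 7 were under the adjusted threshold, again as a description, beside 48.8% of all tested genes (17.4% higher and 31.5% lower). With Klrc1 5 were at an unadjusted p under 0.05, beside 55.2%. Klrc1 was at -0.12 (SE 0.05), Klrk1 at -0.02 (SE 0.05) and Nkg7 at -0.02 (SE 0.04).

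**Figure D3:**
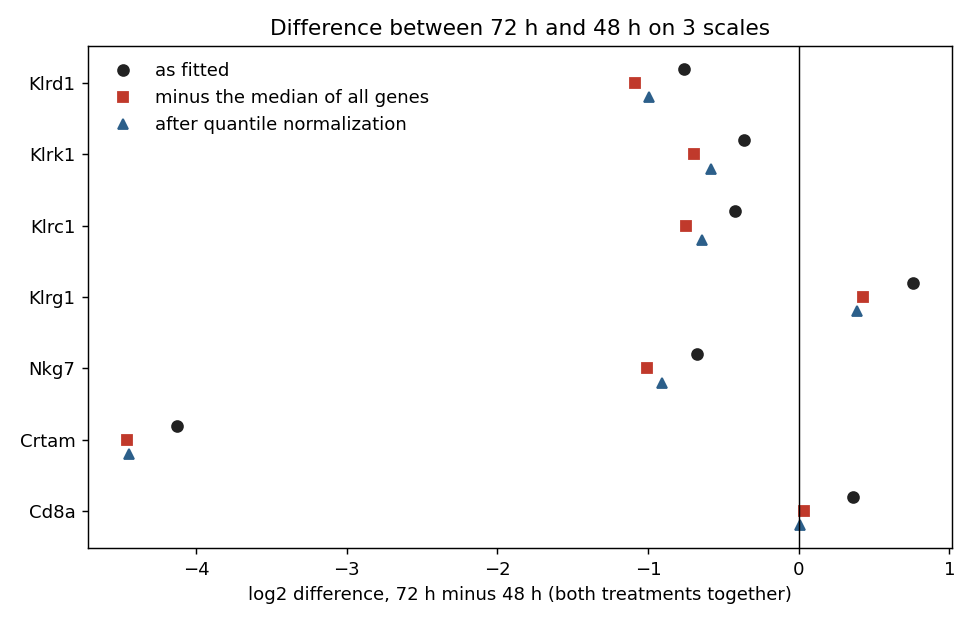
Log2 difference of the 7 genes between 72 h and 48 h, both treatments together, as fitted, minus the median of all tested genes, and after quantile normalization over all arrays. Crtam lies near -4.13 to -4.46, Klrd1 and Nkg7 below -0.6 on each scale, Klrg1 above 0, and Cd8a moves from 0.36 to 0.01.

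Klrd1, Klrk1 and Klrc1 are neighbours in the NK gene complex on mouse chromosome 6, in the order Klre1, Klrd1, Klrk1, Klrc3, Klrc2, Klrc1 among protein-coding genes (RefSeq, GRCm38.p6). The intervening Klrc3 and Klrc2 were too dim to be tested, at means of 5.23 to 6.73 and 9.31 to 10.6 at the 3 times. Klre1, a receptor that pairs with others of its family, was 148 ± 8.54 with Antagomir-31 and 151 ± 4.44 with Antagomir-SCR at 72 h (SD, n = 3 each). The log2 ratio of its mean at 72 h over 48 h was -0.90, after 0.58 at 48 h over 36 h. Gabarapl1, just outside the receptor genes, had ratios of -0.09 and 0.07, and Olr1, 2 genes further out, had -3.47 and -0.15. The tested killer receptor genes of this stretch all had ratios below 0 for 72 h over 48 h, as did Olr1, a scavenger receptor for oxidised lipoprotein.

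**Figure D4:**
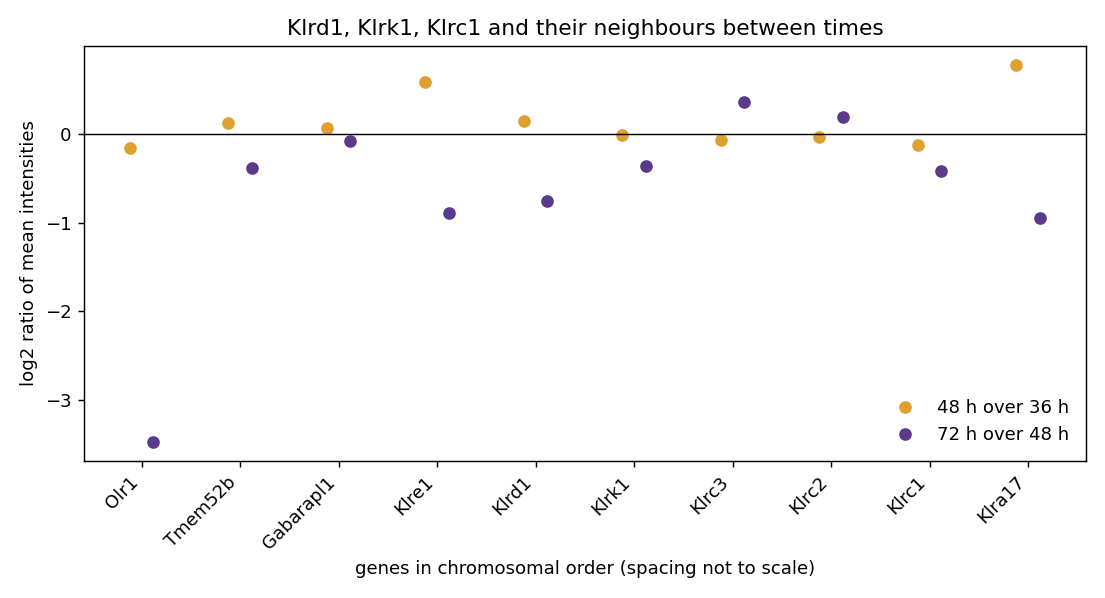
Log2 ratio of mean intensities (48 h over 36 h, and 72 h over 48 h, both treatments together) for the genes around Klrd1, Klrk1 and Klrc1 in chromosomal order, spacing not to scale; genes without a value (Klri1, Klri2 and Klrh1, between Klrc1 and Klra17) are left out. Klre1, Klrd1, Klrk1, Klrc1 and Klra17 lie between -0.37 and -0.95 for 72 h over 48 h, Gabarapl1 at -0.09.

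Of 26 other killer lectin receptors and related lectins listed, 15 had a probe set with a single symbol and 5 were tested: Klre1, Klra5, Klra17, Clec2d and Clec2i. None passed between the treatments at 72 h, beside 1.05% of all tested genes, and 2 did at an unadjusted p under 0.05, beside 17.5%. Klra17, a receptor of the Ly49 family, was 27.9, 33.3 and 28.2 with Antagomir-31, against 41.0, 40.2 and 37.7 with Antagomir-SCR, at 72 h, all lower (-0.42, SE 0.09, limma adjusted p = 0.0552). These are dim levels, as the medians of the 72 h arrays were 27.9 to 28.4. Clec2i was at -0.33 (SE 0.15, adjusted p = 0.267). Between 48 h and 72 h 4 of the 5 fell and 0 rose, beside 15.7% and 71.2% of all tested genes. Their median was -0.78 beside 0.33 for all genes. Klra17 fell by 0.96 (SE 0.07), Klre1 by 0.90 (SE 0.05) and Klra5 by 0.78 (SE 0.07).

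The adaptors and proximal kinases downstream of these receptors were mixed. Of 22 listed 18 were tested, and 0 passed between the treatments at 72 h, beside 1.05% of all tested genes. At an unadjusted p under 0.05 were 2, beside 17.5%. They were Plcg2, a phospholipase of ITAM signalling (0.20, SE 0.06), and Lat, the linker of T cell activation (-0.12, SE 0.05). From 48 h to 72 h 10 rose and 6 fell, beside 71.2% and 15.7% of all tested genes. Their median was 0.12 beside 0.33 for all genes. Ptpn6, the phosphatase SHP-1 that inhibitory receptors recruit, fell by 0.91 (SE 0.04), the linker Lat2 fell by 0.71 (SE 0.06) and Lat fell by 0.60 (SE 0.04). The exchange factors Vav2 and Vav1 rose by 0.92 (SE 0.07) and by 0.86 (SE 0.04).

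Ligands of the receptors were measured in the same cells. Of 20 listed 6 were tested and 0 passed between the treatments at 72 h, beside 1.05% of all tested genes. At an unadjusted p under 0.05 was 1, beside 17.5%, namely Cd48, a ligand of the receptor 2B4 (-0.17, SE 0.05). Ulbp1, a mouse NKG2D ligand, was 49.5 ± 4.46 with Antagomir-31 and 48.8 ± 2.44 with Antagomir-SCR at 72 h (SD, n = 3 each), and between 48 h and 72 h it rose by 0.90 (SE 0.07). Cdh1, E-cadherin, the ligand of Klrg1, was too dim to be tested. After 48 h 5 of the 6 ligands rose, beside 71.2% of all tested genes, with a median of 0.57 beside 0.33. The other, Pvr, the ligand of Cd96 and CD226, fell by 0.90 (SE 0.04).

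Of 18 other killer receptors and death ligands 8 were tested, and 0 passed between the treatments at 72 h, beside 1.05% of all tested genes. At an unadjusted p under 0.05 was 1, beside 17.5%. That was Cd96, an inhibitory receptor for Pvr, at 169.9, 179.1 and 155.7 with Antagomir-31, against 144.7, 137.3 and 148.5 with Antagomir-SCR, all higher (0.23, SE 0.05, limma adjusted p = 0.0587). By 72 h, relative to 48 h, 5 fell and 2 rose, beside 15.7% and 71.2% of all tested genes. Their median was -0.67 beside 0.33 for all genes. Cd27 fell by 0.995 (SE 0.09), Slamf1 by 0.84 (SE 0.05) and Cd84 by 0.78 (SE 0.04), and Cd96 rose by 0.86 (SE 0.04). Tnfsf10, the death ligand TRAIL, rose by 0.21 as deposited and was at -0.15 after quantile normalization and -0.14 after median centring.

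Among the regulators of the cytotoxic programme Prdm1 (Blimp-1), a repressor that drives effector differentiation, was higher with Antagomir-31. It was 385.8, 386.3 and 383.7 with Antagomir-31, against 329.5, 309.0 and 303.7 with Antagomir-SCR, at 72 h. The ranges were far apart, and the log2 difference was 0.30 (SE 0.05, limma adjusted p = 0.0175). At an unadjusted p under 0.05 were 5 of the 21 tested regulators, of 26 listed, beside 17.5% of all tested genes. Prdm1 was the only one to pass, beside 1.05%. With genes collapsed, its call held in 17 of 23 other settings, with limma adjusted p-values of 0.00373 to 0.0881. It was lost without Antagomir-31 replicate 2 or 3 or Antagomir-SCR replicate 3 of 72 h, without the filter on low values, with the replicate number as a block, and with the 72 h arrays alone, and no list gene was called in the fit on all probe sets. Id2 was at 0.21 (SE 0.06, adjusted p = 0.0949), Zeb2 at 0.20 (SE 0.07, adjusted p = 0.163) and Il12rb2 at -0.34 (SE 0.12, adjusted p = 0.177). Prdm1 was 136.7 ± 6.83 with Antagomir-31 and 120.9 ± 2.48 with Antagomir-SCR at 36 h, and 133 ± 1.65 with Antagomir-31 and 138 ± 7.88 with Antagomir-SCR at 48 h (SD, n = 2 each).

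The factors named for the promoter motifs did not pass between the treatments. Runx3 was 472 ± 9.93 with Antagomir-31 and 437 ± 25.9 with Antagomir-SCR at 72 h, and Tbx21 (T-bet) was 1748 ± 18.4 with Antagomir-31 and 1855 ± 33.6 with Antagomir-SCR (SD, n = 3 each). Eomes stayed dim, at 28.2 ± 0.29 with Antagomir-31 and 26.6 ± 1.01 with Antagomir-SCR (SD, n = 3 each). Between the last 2 times 13 of the 21 regulators rose and 6 fell, beside 71.2% and 15.7% of all tested genes. Their median was 0.42 beside 0.33 for all genes. Prdm1 rose by 1.36 (SE 0.04), Ikzf2 by 1.32 (SE 0.06) and Lef1 by 1.07 (SE 0.05), and Stat4, which carries the IL-12 signal, fell by 2.11 (SE 0.05), Gata3 fell by 2.05 (SE 0.08) and Zeb2 fell by 1.31 (SE 0.06).

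Of 18 genes of the lytic granule and its release, the machinery that Nkg7 belongs to, 16 were tested. Between the treatments at 72 h 0 passed, beside 1.05% of all tested genes, and 2 were at an unadjusted p under 0.05, beside 17.5%. Those were Serpinb6b, an inhibitor of granule proteases (0.20, SE 0.06), and Ctsw, a cathepsin of killer cells (-0.19, SE 0.09). From 48 h to 72 h 9 fell and 5 rose, beside 15.7% and 71.2% of all tested genes. Their median was -0.13 beside 0.33 for all genes. Prf1, the pore-forming perforin, was 537 ± 11.1 with Antagomir-31 and 550 ± 116 with Antagomir-SCR at 72 h (SD, n = 3 each), and fell by 2.65 (SE 0.09) after 48 h. Serpinb6b fell by 1.87 (SE 0.05) and Ctsw fell by 1.84 (SE 0.07), whereas Rab27a, which docks granules, rose by 0.89 (SE 0.06).

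At 36 h and 48 h no gene of the 7 lists passed between the treatments by limma, beside 0.0% of all tested genes. At an unadjusted p under 0.05 the lists held 0 to 2 genes each, beside 5.39% at 36 h and 5.99% at 48 h. Between 36 h and 48 h, when 17.4% of all tested genes were called higher and 31.5% lower, 2 of the 5 killer lectin receptors were higher and 1 lower, and 4 of the 8 other killer receptors were higher and 2 lower. Of 18 adaptors 3 were higher and 7 lower, of 21 regulators 3 were higher and 8 lower, and of 16 lytic granule genes 1 was higher and 3 lower. Of 6 ligands 1 was lower, and of 6 polarity genes 0 passed, also at an unadjusted p under 0.05, beside 55.2% of all tested genes.

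Markers of the labelled cells and of other cells were summed per array beside the treatment difference in Crtam. For CD4 T cells (9 of 9 with a value, 8 tested) the sum at 72 h was 11820 to 12240 in Antagomir-31 cells. Against 12360 to 12470 in Antagomir-SCR cells this was lower without overlap. At 36 h it was also lower, at 13510 to 13590 against 13610 to 14030 with Antagomir-SCR, and at 48 h the treatments overlapped. For dendritic cells (9 of 10 with a value, 5 tested) the sum at 72 h was 3802 to 4091 in Antagomir-31 cells, against 4363 to 4488 in Antagomir-SCR cells, lower without overlap, and at 36 h and 48 h it was higher with Antagomir-31 (1726 to 1761 against 1626 to 1671 with Antagomir-SCR at 36 h, and 1872 to 1983 against 1790 to 1801 with Antagomir-SCR at 48 h). Most of the sum was Batf3, at 1246 to 3870 over the 14 arrays, which activated T cells also express, and Itgax, Xcr1 and H2-Aa did not exceed 19.7. The others were Flt3 (15.8 to 41.2), Siglech (31.3 to 43.5), Zbtb46 (51.3 to 60.6), Cd74 (64.5 to 280.9) and H2-Ab1 (123.5 to 179.4). At 72 h the log2 difference of Cd74, the MHC class II invariant chain, was -0.32 (SE 0.09, limma adjusted p = 0.106) and that of H2-Ab1 -0.25 (SE 0.09, adjusted p = 0.151). For NK cells (7 of 9 with a value) the sum at 72 h was 6598 to 7967 in Antagomir-31 cells, against 4915 to 6884 in Antagomir-SCR cells, nearly all of it Gzma. The log2 difference of Gzma at 72 h was 0.42 (SE 0.11, limma adjusted p = 0.0872), and its treatments overlapped. It was under the threshold in 3 of 23 other settings. The part of these cells in the differences was not tested. The sums for B cells, macrophages and monocytes, and gamma delta T cells were at most 251, 262 and 75.8 on any array. At 72 h that of macrophages and monocytes was 243.0 to 250.6 with Antagomir-31, against 234.9 to 242.1 with Antagomir-SCR, higher without overlap. That of B cells at 48 h was 147.9 to 162.3 with Antagomir-31, against 167.7 to 168.4 with Antagomir-SCR, lower without overlap. At the other times both overlapped, and that of gamma delta T cells overlapped at each time.

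The genes whose log2 values over the 14 arrays were most like those of the 7, by Pearson's r among all tested genes, were found for each. For Crtam they were Tusc3 and Cth (r = 0.998 for both), for Nkg7 P4ha2 (0.993) and Xdh (0.992), and for Klrd1 Lgals7 (0.994) and Rnf157 (0.989). For Klrk1 they were Mboat7 (0.978) and Slc25a17 (0.966), and for Klrc1 Bloc1s4 (0.986) and Ell2. Palld (0.987) and Tcl1b4 (0.985) came first for Klrg1, and Engase (0.979) and Prr27 for Cd8a. The 14 arrays fall into 3 times, which seem to have been normalized separately, and these values follow mainly the steps between them.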

How the data were processed

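The arrays were scanned by the authors in GCOS and normalized with RMA (affy package; versions not given in the sources used here). What they deposited are linear RMA intensities, which were put on the log2 scale here. Means within a time were nearly equal, so normalization seems to have been done per time. Of 45101 probe sets 64 were controls, 932 had several symbols and 9160 had none. The other 34945 were used, 34742 of them named through an identifier and 1 with an updated symbol. On each array a gene took its highest probe set, and the brightest 60% of genes were kept. A single limma 3.58.1 fit (R 4.3.3) over 6 groups gave all contrasts, with Benjamini-Hochberg adjusted p-values over 10916 genes and a threshold of 0.05. Tables were made in Python 3.11.15. Group means are linear, with SD over arrays. Precision is limited by how many arrays there are.

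The 7 genes, the gene lists and the alternatives were chosen with earlier results of these data known, and the promoter motifs after the windows had been read. The lists were killer lectin receptors, receptor adaptors and proximal signalling, receptor ligands, other killer receptors, regulators of the cytotoxic programme, lytic granule machinery, Crtam polarity partners, and markers of other cell types. Named from them were genes that passed between treatments, those with the smallest p at 72 h (up to 4 a list), those with the largest called changes between times (up to 3 in each direction), marker genes, and partners of the 7 genes. Not every gene that these rules picked is printed, and list changes between 36 h and 48 h are given mainly as counts. For each of the 7, the 2 most alike genes were named. Runx3, Tbx21 and Eomes were named for the motifs and Olr1 and Gabarapl1 for their position, after their values were seen. Listed genes without a probe set of a single symbol were not analysed here. Alternatives were other rules for probe sets, filters and normalization, a trended prior, the replicate number as a block, fewer arrays, and each array left out. Detection calls and the study's RNA sequencing were not used here.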

Additional observations from a re-analysis of the deposited data

Results flagged for a closer look

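Klrg1 was lower on all Antagomir-31 arrays at 36 h (log2 difference -0.15) and higher on all at 72 h (0.20). The difference between these effects was 0.35 (SE 0.13), and it was not called in the fit over all genes. The 36 h ranges were apart by 68.9 against 69.2 and the 72 h ranges by 150.9 against 150.6. Opposite directions without overlap at 36 h and 72 h were found in 4.26% of tested genes, and at 48 h and 72 h in 3.66%.

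The same pattern, every Antagomir-31 array on 1 side at the earlier time and on the other at 72 h, was seen in genes of the lists. None of these differences passed in the fit. For 72 h minus 36 h they were -0.6 for Il12rb2, 0.33 for Id2, 0.27 for Cd96, 0.26 for Vav3, 0.14 for Cdc42 and -0.25 for Batf3. For 72 h minus 48 h they were -0.69 for Klra17, -0.38 for H2-Ab1, 0.34 for Cd96, -0.26 for Batf3, 0.25 for Serpinb6b, 0.23 for Eomes and -0.08 for H2-D1. With 2 arrays of each treatment at 36 h and 48 h, such a separation rests on 4 arrays.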

How the results depend on the processing

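Counts of the 7 genes are descriptions, since these genes were chosen on the same values. Of them 1, Crtam, was under the threshold at 72 h, and 0 were without the filter on low values, with the replicate block, with the 72 h arrays alone or with all probe sets uncollapsed. Of the list genes 1 passed at 72 h. This count was 0 without the filter, with the replicate block, with the 72 h arrays alone and with all probe sets, 2 with a mean log2 of at least 6, 2 after quantile normalization and 6 with a trended prior. Of all genes 115 passed at 72 h. There were 16 without the filter, 286 with a mean log2 of at least 6, 424 with a trended prior, 22 with the replicate block, 25 with the 72 h arrays alone and 13 with all probe sets. At 36 h 0 genes passed, and 1 did with a trended prior. Over the 3 times 0 of the 7 genes were under it, and 1, Crtam, was with a mean log2 of at least 6, after quantile normalization and with a trended prior. Of all genes 2 passed over the 3 times, against 1 without the filter, 15 with a mean log2 of at least 6, 9 after quantile normalization, 39 with a trended prior, 0 with the replicate block and 0 with all probe sets. The treatment difference changed between 36 h and 72 h for 2 genes, against 0 without the filter, 21 with a mean log2 of at least 6, 44 with a trended prior, 1 with the replicate block, 1 with the arrays of those times alone and 0 with all probe sets. Between 48 h and 72 h it changed for 4 genes, against 2 without the filter, 16 with a mean log2 of at least 6, 26 with a trended prior, 1 with the replicate block and 0 with all probe sets. Between 36 h and 48 h 35 list genes passed, beside 48.8% of all tested genes, and 63 list genes did with all probe sets. The cause of these shifts was not tested.

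With each array left out in turn, 0 to 1 genes of all passed at 36 h, and the range at 48 h was also 0 to 1. At 72 h 11 to 101 of all genes, 0 to 2 list genes and 0 to 1 of the 7 genes passed. Over the 3 times it was 1 to 7 of all genes and 0 to 1 of the 7. The change of the treatment difference passed for 0 to 7 genes (36 h and 72 h) and 0 to 8 (48 h and 72 h). Between 36 h and 48 h 25 to 36 list genes, 3 to 5 of the 7 genes and 41.3% to 49.1% of all genes passed, and between 48 h and 72 h 69 to 72 list genes, all 7 genes and 84.7% to 87.1% of all genes.

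Directions turned for a few list genes. Lamp2, between 36 h and 48 h, was at 0.065 without _x_at and _s_at probe sets. Between 48 h and 72 h, quantile normalization put Cd28 at -0.0027, H2-Ab1 at -0.17, Llgl1 at -0.001 and Tnfsf10 at -0.15, and median centring put Cd28 at -0.15, H2-Ab1 at -0.16 and Tnfsf10 at -0.14. After quantile normalization Cd8a was at 0.01 over that step.

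Whether arrays of the same replicate number were paired was not settled. Deviations of same-numbered arrays had correlations of 0.019, -0.07 and 0.056 (72 h), 0.062 (36 h) and -0.166 (48 h). With 2 arrays of each treatment at 36 h and 48 h, crossed pairs had the same values with the opposite sign. Such correlations cannot show that the arrays were unpaired. The crossed pairing at 48 h, chosen after seeing the data, gave 0 calls, as did the fit without it. There were 2 or 3 arrays of each treatment at a time, and no detection limit was computed for the killer receptors. Cd8a lay little above the array medians.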
